A study of Mus musculus with 32 samples.

Results

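The 39 Hox genes of the mouse were described in spinal cord RNA, paralogue group by paralogue group and mouse by mouse. They were taken by symbol, as every protein-coding gene named Hox with a cluster letter from a to d and a group number, which gave 39 of the 42524 genes in the table. The Hoxa cluster on chromosome 6 supplied 11 of them, the Hoxb cluster on chromosome 11 supplied 10, and the Hoxc cluster on chromosome 15 and the Hoxd cluster on chromosome 2 supplied 9 each. The RNA came from wild-type (WT) and G93A mice, untreated or given OKN007, at 90 or 155 days as labelled (the study's text gives 95 days for the earlier age), with 4 mice in each of the 8 groups and 32 mice in all. G93A mice carry a transgene for human SOD1 with the mutation that names them, driven by the human SOD1 promoter in all cells, on a C57BL/6J background, and WT mice were littermates without it. OKN007 is a nitrone compound that was given in the drinking water. The dose of the sequenced mice is not named, though the study places sacrifice at 95 and 155 days in its higher-dose cohorts. Each library was made from about 25 mg of cord from 1 mouse. The study describes its mice as mostly female and names males only for its neuromuscular junction and disease scoring work. The level of the cord that was sampled for RNA is not given in the sources used here.

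Hox genes encode homeodomain transcription factors that give cells their position along the head-to-tail axis. Within each of the 4 clusters the genes stand in the order of the axis they pattern, and the genes with the same number in different clusters (a paralogue group) descend from 1 ancestral gene and share a similar range. The lowest numbers act in the hindbrain. Groups 4 to 8 pattern the cervical and brachial cord, where forelimb motor neurons arise. Groups 8 and 9 mark the thoracic cord, with Hoxc9 known for setting the border of thoracic motor columns. Group 10 marks the lumbar cord, where Hoxc10 and Hoxd10 help to specify hindlimb motor neurons, and groups 11 to 13 mark the sacral and caudal cord. Parts of this code persist in the adult cord.

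Libraries held 19701722 to 30138257 reads assigned to genes, with a median of 26658755. Hox genes took 0.101% to 0.137% of them, or 25422 to 40108 reads a mouse, and 28 of the 39 genes had more than 3 reads in every mouse. Levels are CPM, read counts scaled to a fixed library size, after TMM scaling, a correction for library composition, and 3 reads corresponded to 0.0995 to 0.152 CPM before that scaling. After the filter on low counts 37 genes were tested at 155 days, all but Hoxb1 and Hoxd12, and 35 at 90 days, all but Hoxb1, Hoxd12, Hoxa13 and Hoxd13. Several genes of groups 11 to 13 passed at 155 days mainly through WT mice, so their number among the tested genes is no evidence of a direction. Reads of 9 Hox genes may be shared with a gene overlapping on the same strand, most of all between Hoxd3 and Hoxd4, where 62.3% and 52.3% of the exon bases overlap another gene, and 10 overlap an antisense gene, such as Hoxb3 over 52.9% of its exons and Hoxa11 over 35.0%. The strand setting of the counting is not given in the sources used here, so such reads cannot be told apart.

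Markers of spinal cord and brain were read as a check of the tissue. Chat, the acetylcholine-synthesising enzyme of motor neurons, lay between 14.2 and 54.1 CPM, and the forebrain factors Emx1 and Tbr1 were at 0.152 and 0.284 CPM at most. Neurod6, also on the forebrain list, lay between 2.44 and 6.77 CPM and the cerebellar gene Cbln1 between 28.7 and 65.5 CPM. The other cerebellar genes were lower, with Barhl1 at 1.24, Pcp2 at 7.19 and Gabra6 at 5.83 CPM at most. Group medians of Pcp2 and Gabra6 did not exceed 0.433 and 0.0493 CPM. The summed cerebellar level was highest in OKN007 WT replicate 8 at 155 days (79.1 CPM). That mouse also had the highest Hoxc10 level (75.2 CPM), and any relation was not tested. Markers of peripheral nerve were uneven. The summed level of 4 Schwann cell genes was 1135 CPM in untreated WT replicate 3 and 206 CPM in untreated G93A replicate 10 at 90 days, 36.6 CPM in OKN007 WT replicate 6 and 32.4 CPM in OKN007 G93A replicate 14 at 155 days, and 1.98 to 6.14 CPM in the other 28 mice. In bulk tissue, fewer cells of a kind and less RNA in each cell cannot be told apart.

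Promoters are shown for 3 genes that the results turn on, Hoxa10 and Hoxd10 of the strongly varying lumbar group and Hoxb8, the Hox gene with the highest level per length. They come from RefSeq on build GRCm38.p6, run from 250 bases before the start of transcription to 50 bases after it, and are written 5′ to 3′ on the gene's strand, with capitals for the letters CCAAT or TATAAA on either strand. The Hoxa10 window shown, at chr6:52234890-52235189 (minus strand), holds 1 of each, the Hoxd10 window at chr2:74691641-74691940 (plus strand) holds 1 CCAAT, and the Hoxb8 window at chr11:96281655-96281954 (plus strand) holds 2 TATAAA and 1 CCAAT. Another Hoxa10 window, at chr6:52240805-52241104 (minus strand) and not shown, holds neither.
Hoxa10: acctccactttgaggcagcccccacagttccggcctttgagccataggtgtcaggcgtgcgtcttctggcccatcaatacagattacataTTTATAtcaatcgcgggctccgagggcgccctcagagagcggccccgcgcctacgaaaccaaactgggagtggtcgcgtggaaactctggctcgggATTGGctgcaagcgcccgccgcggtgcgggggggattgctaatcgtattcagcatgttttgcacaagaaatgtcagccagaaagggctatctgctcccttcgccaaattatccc
Hoxd10: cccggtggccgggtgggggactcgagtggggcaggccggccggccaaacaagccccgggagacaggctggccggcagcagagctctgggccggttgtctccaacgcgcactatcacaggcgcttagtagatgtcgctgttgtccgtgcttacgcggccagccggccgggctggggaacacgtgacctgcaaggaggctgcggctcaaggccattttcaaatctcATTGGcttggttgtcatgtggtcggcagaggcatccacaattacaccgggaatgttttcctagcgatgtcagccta
Hoxb8: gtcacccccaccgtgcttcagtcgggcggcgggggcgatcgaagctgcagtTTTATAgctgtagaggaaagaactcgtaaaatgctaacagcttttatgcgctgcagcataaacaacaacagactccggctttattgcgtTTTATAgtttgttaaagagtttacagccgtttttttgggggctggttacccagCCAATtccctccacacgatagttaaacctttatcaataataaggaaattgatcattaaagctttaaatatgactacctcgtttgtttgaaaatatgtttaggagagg

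Promoters of 22 Hox genes matched, as 24 windows of 300 bases. CCAAT, read on both strands, was in 15 of them (62.5%) against 37.4% of all 32851 promoters, and TATAAA was in 4 (16.7%) against 13.6%. The letters TTTATG, a core read by posterior Hox proteins, were in 5 (20.8%) against 11.9%, and TGATTNAT, read by Hox proteins with their Pbx partners, in 2 (8.33%) against 3.22%. The Hox windows were richer in CpG, with a median of 14.5 CpG against 7. Such matches describe the letters and are no evidence of binding.

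Per length of transcript, the Hox levels of the cord formed a hill over the groups. The 4 highest genes by median CPM per kilobase of exon were Hoxb8 (83.5), Hoxb7 (63.8), Hoxa7 (54.5) and Hoxb6 (38.4), all of groups 6 to 8, and they were followed by Hoxc8 (29.6), Hoxd8 (27.2) and Hoxb9 (25.7). Hoxc10 was eighth with 16.1 CPM per kilobase. Towards the head, group 4 and 5 genes ran from 15.3 (Hoxa5) to 1.91 (Hoxd4), group 3 genes from 4.63 (Hoxb3) to 1.91 (Hoxa3), and the hindbrain gene Hoxb1 was near its floor at 0.039. Towards the tail, Hoxd10 and Hoxa10 lay at 5.84 and 5.99 and every gene of groups 11 to 13 at or below the 1.04 of Hoxc11. The ranges over mice of neighbours in this order overlapped in many cases: Hoxb7 spanned 50.7 to 77.8 and Hoxa7 43 to 70.9 CPM per kilobase. Hoxd12 was at 0 in the median mouse.

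The shares of all Hox reads by region showed how much of the code was constant. Groups 1 to 3 took 4.47% to 5.91% of the Hox reads in all 32 mice, and groups 4 to 8 took 63.2% to 84.1%. The share of group 9 ran from 10.6% to 18.5%, that of group 10 from 0.396% to 11.9%, and that of groups 11 to 13 from 0.0111% to 2.64%. The anterior share was thus nearly fixed, while the lumbar and sacral shares varied widely.

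**Figure D1:**
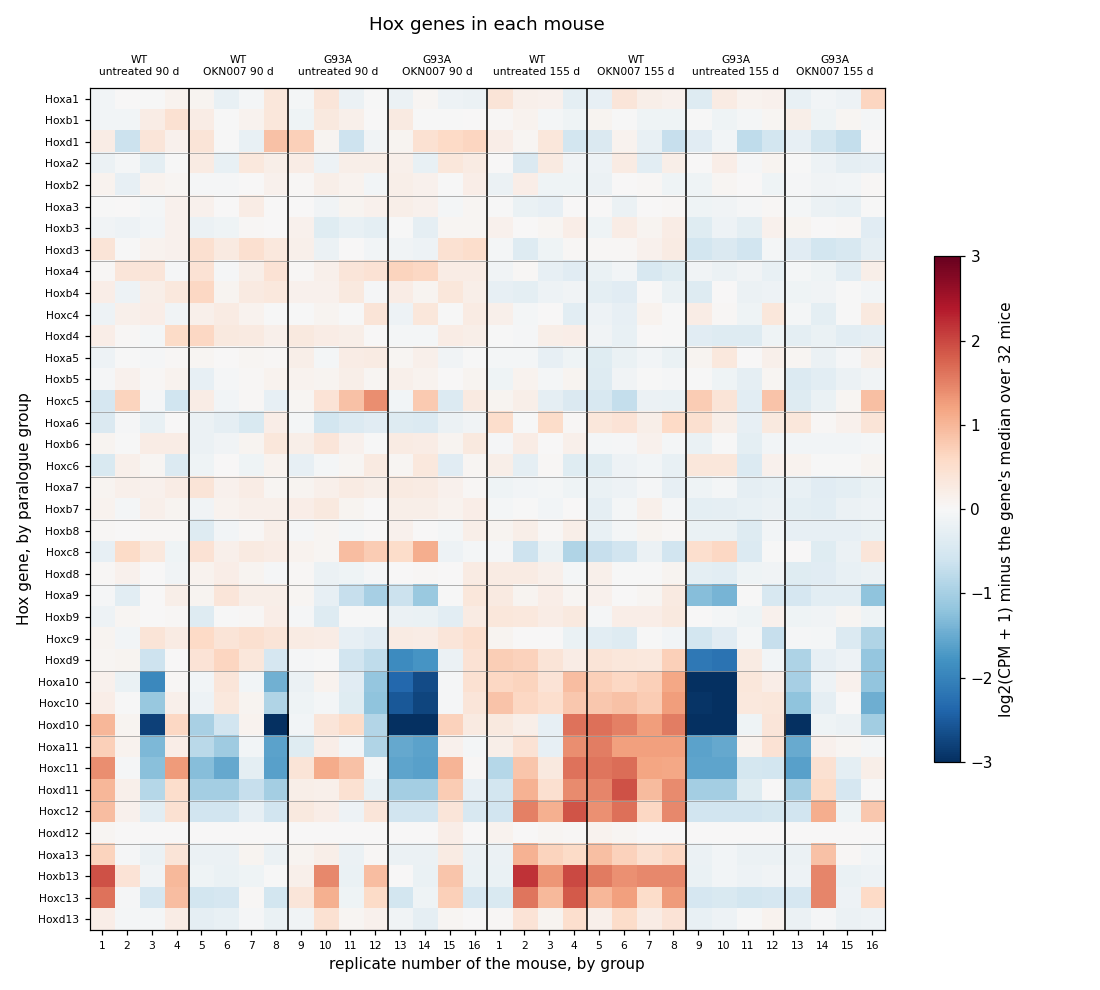
Level of each Hox gene (vertical axis, in order of paralogue group) in each of 32 mice (horizontal axis, replicate numbers within the 8 groups), as log2(CPM + 1) minus the gene's median over the 32 mice, so that blue is below and red above that median, with the colour scale ending at 3 log2 units. The upper part is pale, and colour gathers from Hoxd9 downward, where 2 mice of the untreated G93A group at 155 days and 2 of the OKN007 G93A group at 90 days are deep blue.

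Most genes of the anterior and brachial groups differed less between mice of one group than most genes of the lumbar and sacral groups. The standard deviation between mice of one group on the log2(CPM + 1) scale had a median of 0.196 over the 7 tested genes of groups 1 to 3, 0.151 over the 15 of groups 4 to 8, 0.322 over the 4 of group 9, 1.04 over the 3 of group 10 and 0.632 over the 8 of groups 11 to 13. The median over all 19829 genes tested in the 32 mice was 0.165. Adding 1 CPM flattens scarce genes, and with 0.1 CPM added instead the median was 1.53 for groups 11 to 13, above the 1.20 of group 10, and 0.202 for all genes. By edgeR's biological coefficient of variation, which allows for counting error in low genes, 11 of the 37 tested Hox genes lay above the 95th percentile of all tested genes. These were Hoxd9, the 3 genes of group 10 and all tested genes of groups 11 to 13 except Hoxd13. The steadiest Hox genes were Hoxa7 (0.0878), Hoxa3 (0.0966) and Hoxb7 (0.0994). Within groups 1 to 8 the most variable were Hoxc5 (0.464), Hoxd1 (0.396) and Hoxc8 (0.394), well above the median of all genes.

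**Figure D2:**
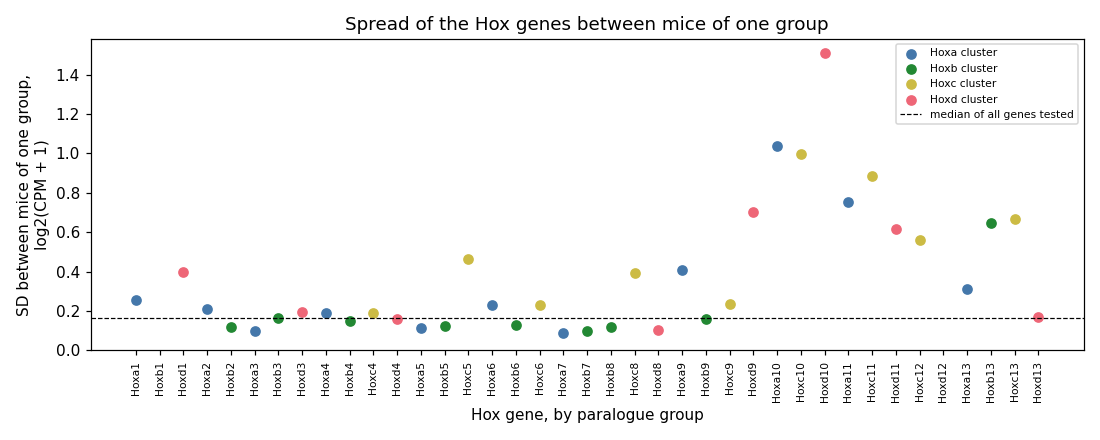
Standard deviation between mice of one group, in log2(CPM + 1), for each tested Hox gene (horizontal axis, in order of paralogue group), with colours for the 4 clusters and a dashed line at the median of all genes tested. Most genes of groups 1 to 8 sit near the line, with Hoxd1, Hoxc5 and Hoxc8 above it, and most genes from Hoxd9 onward lie well above it, up to the 1.51 of Hoxd10, while the scarce Hoxd13 lies at 0.169 (0.625 with 0.1 CPM added in place of 1).

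Hoxb8, the most abundant Hox gene, shows the steady part of the code. It ran from 169 through a median of 224 to 250 CPM in the 16 mice at 90 days and from 167 to 250 CPM in the 16 at 155 days. Leading genes of other groups up to group 7 had these ranges. Hoxb2 lay between 12.9 and 18.2 CPM in all 32 mice, Hoxb3 between 15 and 23.3, Hoxb4 between 24.2 and 49.6, Hoxb5 between 26.1 and 39.8, Hoxb6 between 61.1 and 97.1 and Hoxa7 between 124 and 204. The leading gene of group 1, Hoxd1, is scarcer and ran from 0.853 to 4.75 CPM.

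Hoxc10, the most abundant gene of the lumbar group, shows the varying part. At 90 days it was at 35.7, 30.3, 13.5 and 34.5 CPM in untreated WT mice, 27.7, 38.3, 32.5 and 15.9 in OKN007 WT mice, 28.1, 29.6, 23.6 and 12.7 in untreated G93A mice and 4.5, 3.75, 29.8 and 39.7 in OKN007 G93A mice. At 155 days it was at 56.1, 47.7, 44.3 and 54.8 CPM in untreated WT mice, 54.5, 57.3, 52.8 and 75.2 in OKN007 WT mice, 3.14, 2.72, 38.7 and 39 in untreated G93A mice and 12.8, 25.4, 31.3 and 10.6 in OKN007 G93A mice. All 8 WT mice at 155 days were thus above all 8 G93A mice of that age, and 2 mice of the untreated G93A group at 155 days and 2 of the OKN007 G93A group at 90 days were far below their group mates.

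Hoxd10, the other well-known lumbar gene, marked the same mice more sharply. At 90 days it was at 22.2, 11.2, 0.676 and 16.8 CPM in untreated WT mice, 4.93, 6.75, 11.5 and 0.14 in OKN007 WT mice, 10, 13.8, 15.9 and 5.27 in untreated G93A mice and 0, 0, 17.8 and 12.9 in OKN007 G93A mice. At 155 days it was at 13.2, 12, 8.82 and 34.7 CPM in untreated WT mice, 35.3, 32.2, 26.5 and 32.5 in OKN007 WT mice, 0, 0.0412, 9.67 and 13.9 in untreated G93A mice and 0.236, 9.59, 9.2 and 4.58 in OKN007 G93A mice. In 5 mice it had 3 reads or fewer: untreated G93A replicates 9 and 10 at 155 days, OKN007 G93A replicates 13 and 14 at 90 days and OKN007 WT replicate 8 at 90 days. The set was picked by this level, so its low Hoxd10 is no separate result, and counts of calls below are given with and without it. OKN007 G93A replicate 13 at 155 days (0.236 CPM) and untreated WT replicate 3 at 90 days (0.676 CPM) lay near the cut but outside the set. The 5 mice of the set kept the anterior code, with all 15 genes of groups 4 to 8 above 3 reads, as in every mouse. Of groups 11 to 13, 1 or no gene was above 3 reads. The same held outside this set in OKN007 WT replicate 6 at 90 days and OKN007 G93A replicate 13 at 155 days. At 155 days the summed level of 8 motor neuron markers was 237 and 231 CPM in untreated G93A replicates 9 and 10. It was 221 CPM in each of their 2 group mates, and any relation to the Hox levels was not tested.

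Hoxa9 and Hoxc11 were low in the G93A mice among those with 3 Hoxd10 reads or fewer. In OKN007 WT replicate 8 at 90 days Hoxa9 was 89.4 CPM, within the 83 to 102 CPM of its group. Low Hoxa9 was also found outside this set, at 38.8 CPM in untreated G93A replicate 12 at 90 days. In OKN007 G93A replicate 16 at 155 days it was 33.7 CPM. Hoxa9 was at 31.7, 29.2, 78.2 and 56.3 CPM in untreated G93A mice at 155 days and at 49.9, 35.6, 78.3 and 99.7 CPM in OKN007 G93A mice at 90 days, in the replicate order used for Hoxc10, against 79.7 to 95.9 CPM in the 8 WT mice at 155 days. Hoxc11 was at 0.0374, 0.0412, 1.14 and 1.11 CPM in the first of these groups and at 0.0388, 0, 5.26 and 2.18 CPM in the second. The sacral genes also varied in mice with a full lumbar signal. Untreated WT replicate 1 at 155 days had 56.1 CPM of Hoxc10, yet 0.723 CPM of Hoxc11 and 0 of Hoxc12, against 2.76 to 8.6 and 2.1 to 4.48 CPM in its 3 group mates.

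**Figure D3:**
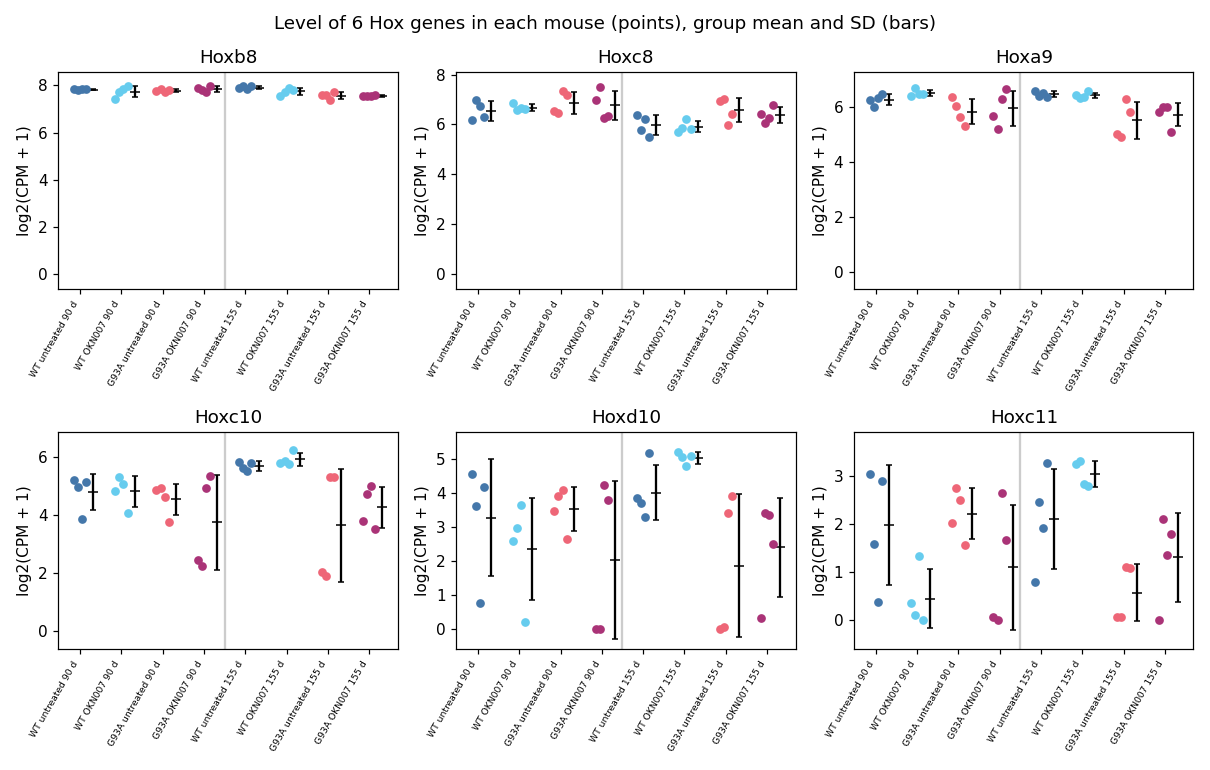
Level of Hoxb8, Hoxc8, Hoxa9, Hoxc10, Hoxd10 and Hoxc11 as log2(CPM + 1) (vertical axis) in each mouse (points) of the 8 groups (horizontal axis, 90 days left and 155 days right of the grey line), with the group mean and SD as bars. Hoxb8 is nearly flat. Hoxc10 spreads most in untreated G93A mice at 155 days and OKN007 G93A mice at 90 days, and lies high in WT mice at 155 days. Hoxd10 and Hoxc11 spread widely in groups of both genotypes. In untreated WT mice Hoxd10 runs from 0.676 to 22.2 CPM at 90 days and Hoxc11 from 0.723 to 8.6 CPM at 155 days.

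Genes of the lumbar group rose and fell together between mice, and 3 anterior genes of the Hoxc cluster ran opposite to them. On the log2(CPM + 1) scale over 32 mice, Hoxc10 followed Hoxa10 with Pearson's r = 0.98 and Spearman's rho = 0.97, and Hoxd10 with r = 0.89 and rho = 0.81 (permutation p = 1e-05 for each, the smallest that 100000 permutations give, and 2e-05 after Benjamini-Hochberg adjustment over the 6 relations examined). Hoxc8, a brachial and thoracic gene of Hoxc10's own cluster, was lower where Hoxc10 was higher (r = -0.74, rho = -0.80, permutation p = 1e-05 and adjusted p = 2e-05 for both). Hoxc6, a forelimb-level gene, did the same with r = -0.66 (permutation p = 4e-05, adjusted p = 6e-05) and rho = -0.58 (permutation p = 0.00079, adjusted p = 0.00118). For Hoxc5 the values were r = -0.46 (permutation p = 0.00706, adjusted p = 0.00847) and rho = -0.48 (permutation p = 0.00698, adjusted p = 0.00838). Hoxc9, which lies between them in the cluster, showed no relation past the threshold (r = 0.12, permutation p = 0.498, adjusted p = 0.498, and rho = -0.02, permutation p = 0.929, adjusted p = 0.929).

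These relations were also present within each age and within groups. For Hoxc8, r was -0.68 in the 16 mice at 90 days (adjusted permutation p = 0.00736), -0.85 in the 16 at 155 days (adjusted permutation p = 0.00014) and -0.72 once each group's mean was subtracted (adjusted permutation p = 2e-05). For Hoxa10 the same values of r were 0.97, 0.99 and 0.99, for Hoxd10 0.85, 0.93 and 0.89, and for Hoxc6 -0.61, -0.72 and -0.60, all past the adjusted threshold. Hoxc5 passed it at 155 days (r = -0.57) and missed it at 90 days (r = -0.31, adjusted permutation p = 0.286) and with group means subtracted (r = -0.32, adjusted permutation p = 0.0953). The 4 mice lowest in Hoxc10 lay at 1.89 to 2.46 on that scale and the other 28 at 3.54 to 6.25. Over those 28 mice r was 0.955 for Hoxa10, 0.80 for Hoxd10, -0.68 for Hoxc8, -0.48 for Hoxc6 and -0.44 for Hoxc5, all with an adjusted permutation p under the threshold. Without the 2 mice farthest from the median of Hoxc10, r was 0.97, 0.87, -0.75, -0.55 and -0.41 in the same order. The mice share the cohort and the library scaling, and Hoxc5 and Hoxc10 overlap over 5.37% and 8.70% of their exons.

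**Figure D4:**
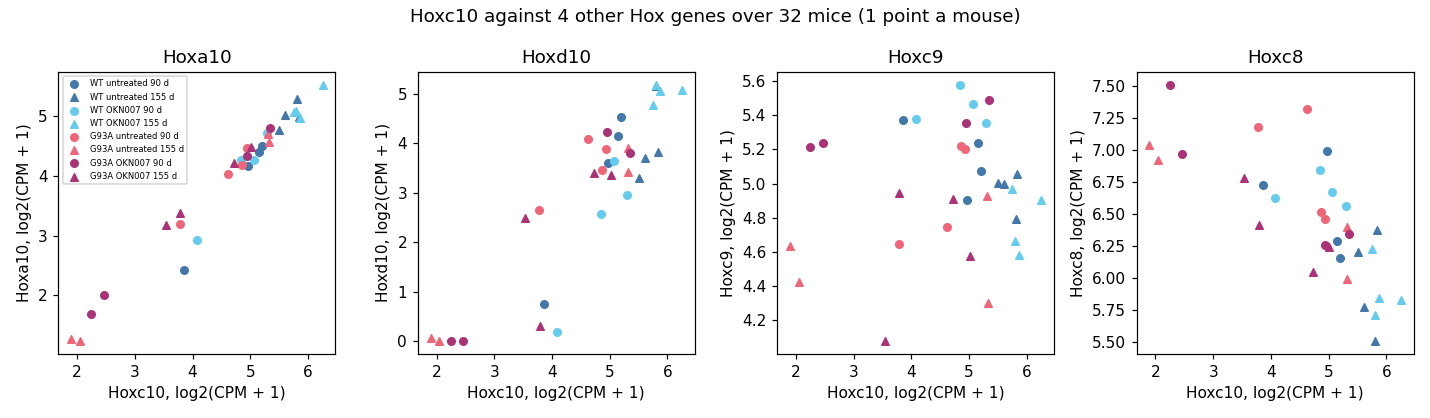
Level of Hoxa10, Hoxd10, Hoxc9 and Hoxc8 (vertical axes) against Hoxc10 (horizontal axes), all as log2(CPM + 1), with 1 point for each of 32 mice, colours for genotype and treatment, circles for 90 and triangles for 155 days. Hoxa10 and Hoxd10 rise with Hoxc10, Hoxc9 shows no clear trend, and Hoxc8 falls as Hoxc10 rises.

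The first comparison between groups asked how untreated G93A mice differed from untreated WT mice at 155 days. Genes called lower in G93A mice lay mostly in groups 9 and 11 to 13, and Hoxa5 and Hoxc8 were called higher. Of 37 tested Hox genes 15 passed an adjusted p of 0.05 in edgeR's quasi-likelihood test, 2 higher and 13 lower, a share of 40.5% beside 39.5% of all 18675 genes tested. The share was near the background, of which 21.3% were higher and 18.2% lower. Of the 13 lower calls, 4 were genes with 3 reads or fewer in every untreated G93A mouse, which had passed the filter through WT mice and could be called only in that direction. The median log2 fold change was -0.26 over the tested Hox genes, also with the 4 genes at their bounds described below, and 0.00 over all genes. By region it was -0.09 for groups 1 to 3, -0.03 for groups 4 to 8, -0.58 for group 9 and -1.28 for group 10, where none of the 3 genes passed. Of the 8 tested genes of groups 11 to 13, 7 were called lower.

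The sacral and caudal genes differed most. Hoxc12 was at 0, 3.24, 2.1 and 4.48 CPM in untreated WT mice and at 0, 0, 0 and 0.0325 CPM in untreated G93A mice, Hoxc13 at 0.0761, 3.49, 1.87 and 4.28 against 0.0374, 0.0823, 0 and 0.0325, and Hoxb13 at 0, 4.13, 1.87 and 3.5 against 0, 0.0823, 0.0406 and 0.0651. Every G93A mouse had 3 reads or fewer of these genes, and so did WT replicate 1, so the groups overlapped through that mouse. Set against 3 reads in the shallowest G93A library, the WT mean was 20-fold higher for Hoxc12 and 19.8-fold for Hoxc13. It was 19.3-fold higher for Hoxb13 and 5.83-fold for Hoxa13. These bounds compare means and take no account of the spread between WT mice. All of these genes had passed the filter through WT mice and could be called only lower (adjusted p = 0.000795, 0.000963, 0.0032 and 0.00621 in the same order, in edgeR's quasi-likelihood test). Hoxc11 was at 0.723, 4.51, 2.76 and 8.6 CPM against 0.0374, 0.0412, 1.14 and 1.11 CPM (log2 fold change -2.77 ± 0.82 SE, adjusted p = 0.0116 in the same test). Hoxd11 and Hoxd13 were also called lower, with log2 fold changes of -2.50 ± 0.86 and -1.46 ± 0.52 SE.

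Among thoracic and brachial genes most differences were smaller. Hoxa9 was at 95.9, 83.9, 91.1 and 82.1 CPM in WT mice and 31.7, 29.2, 78.2 and 56.3 CPM in G93A mice (log2 fold change -0.81 ± 0.23 SE, adjusted p = 0.00933 in edgeR's quasi-likelihood test), with no overlap. Hoxb8 was at 233, 248, 226 and 250 against 190, 193, 167 and 208 CPM (-0.29 ± 0.08, adjusted p = 0.00637 in edgeR's quasi-likelihood test), again with no overlap. Hoxd8, Hoxb9 and Hoxd4 had log2 fold changes of -0.31, -0.26 and -0.41 with no overlap, and Hoxd9 one of -1.20 with overlap. Hoxa5, a gene of the cervical cord and of the lung, was higher in every G93A mouse, at 30.5, 36.3, 29 and 31.9 against 27.8, 27.8, 24.3 and 26.1 CPM (0.31 ± 0.09, adjusted p = 0.00908 in edgeR's quasi-likelihood test). Hoxc8 was at 81.9, 53.8, 72.7 and 44.5 CPM in WT mice and 120, 130, 62.5 and 83.3 CPM in G93A mice, with overlap (0.70 ± 0.22, adjusted p = 0.0145 in edgeR's quasi-likelihood test).

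Many of these calls were lost without 2 mice, which had been picked out by their own Hoxd10 level. Without untreated G93A replicates 9 and 10, which hold 3 Hoxd10 reads or fewer, 5 calls remained of the 15 (Hoxb8, Hoxc12, Hoxa13, Hoxb13 and Hoxc13). All of these but Hoxb8 had 3 reads or fewer in every untreated G93A mouse and could be called only lower. Leaving out G93A mice is therefore no check of those 4 calls. Hoxc8 was then at a log2 fold change of 0.26 (adjusted p = 0.405), Hoxa9 at -0.35 (adjusted p = 0.172) and Hoxd9 at -0.41 (adjusted p = 0.231) in edgeR's quasi-likelihood test. Other lost calls kept most of their size with 2 G93A mice remaining: Hoxb9 was at -0.24, Hoxd4 at -0.35 and Hoxa5 at 0.25. When single mice were left out in turn, 9 of the 15 calls held in every case, the same 4 among them. Hoxc8 and Hoxb9 were lost without G93A replicate 10, Hoxc11 without WT replicate 4, Hoxd13 and Hoxd11 without WT replicate 2 or 4 or G93A replicate 9 or 10, and Hoxd9 without WT replicate 1 or 2 or G93A replicate 9 or 10.

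In OKN007 mice at 155 days, 2 of the 3 lumbar genes passed the test, Hoxc10 and Hoxd10, and Hoxa10 did not (log2 fold change -1.25 ± 0.57 SE, adjusted p = 0.0862 in edgeR's quasi-likelihood test). Of 37 tested Hox genes 11 were called between G93A and WT mice, 2 higher and 9 lower (29.7%, beside 41.5% of all 18675 genes, 23.3% higher and 18.2% lower). Hoxc10 was at 54.5, 57.3, 52.8 and 75.2 CPM in WT mice and 12.8, 25.4, 31.3 and 10.6 CPM in G93A mice (log2 fold change -1.50 ± 0.56 SE, adjusted p = 0.0365 in edgeR's quasi-likelihood test). Hoxd10, at 26.5 to 35.3 against 0.236 to 9.59 CPM, had a log2 fold change of -2.35 ± 0.81 SE (adjusted p = 0.0263 in edgeR's quasi-likelihood test). Neither Hoxc10 nor Hoxd10 overlapped between the groups.

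Of the 8 tested sacral and caudal genes 4 were called lower in the same comparison. Hoxa11 was at 7.69, 6.07, 6.07 and 6.11 CPM in WT mice and 0.0673, 2.3, 2.14 and 1.91 CPM in G93A mice (-1.95 ± 0.73, adjusted p = 0.0395 in edgeR's quasi-likelihood test). Hoxc11 was at 8.46, 8.88, 6.07 and 5.86 against 0, 3.27, 1.54 and 2.47 CPM (-1.95 ± 0.71, adjusted p = 0.0342 in the same test). Hoxd11 was at 4.58, 6.58, 2.88 and 4.42 against 0, 2.01, 0.427 and 0.996 CPM (-2.37 ± 0.77, adjusted p = 0.0187 in edgeR's quasi-likelihood test). Each of these 3 genes was lower in all 4 G93A mice than in any WT mouse. The strongest call was Hoxd13, a gene of the tail end, at 0.346, 0.777, 0.412 and 0.611 against 0.0673, 0.18, 0.0657 and 0.0797 CPM (-2.34 ± 0.55, adjusted p = 0.00218 in edgeR's quasi-likelihood test).

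Further forward, Hoxd3 was lower in all 4 G93A mice at 7.44, 6.4, 6.77 and 7.97 CPM against 10.1, 10.1, 10.8 and 11.8 CPM (-0.51 ± 0.13, adjusted p = 0.0039 in edgeR's quasi-likelihood test). Hoxd8 lay at 58.1, 58.3, 64.1 and 65.8 against 83.3, 73.3, 74.3 and 79.5 CPM (-0.26 ± 0.08) and Hoxa9 at 55.1, 62.7, 63.2 and 33.7 against 85.5, 79.7, 81.9 and 94.4 CPM (-0.59 ± 0.23). Hoxd8 and Hoxa9 were thus lower without overlap too. The 2 higher genes were again Hoxa5, at 30.1, 25.3, 28 and 32.5 against 22.2, 25.1, 27.2 and 24.8 CPM (0.30 ± 0.09), and Hoxc8, at 84.4, 65.1, 74.7 and 109 against 51.4, 56.3, 73.8 and 55.8 CPM (0.57 ± 0.22), both with overlap. In this comparison no mouse held 3 Hoxd10 reads or fewer, and the calls were thin: only those of Hoxd3 and Hoxd13 held whichever mouse was left out. The count fell to 5 without G93A replicate 16 or WT replicate 5, to 6 without G93A replicate 13 or WT replicate 6 and to 7 without WT replicate 8. When untreated G93A replicates 9 and 10 were left out of the shared fit, the count was 13.

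Taking the mean of both treatments, so that 8 mice of each genotype were set against each other at 155 days, 23 of the 37 tested Hox genes were called, 4 higher and 19 lower (62.2%, beside 54.7% of all 18675 genes, of which 28.8% were higher and 25.8% lower). All 3 genes of group 10 and all 8 tested genes of groups 11 to 13 were lower. Of the latter, Hoxc12, Hoxa13, Hoxb13 and Hoxc13 had 3 reads or fewer in every untreated G93A mouse. Several of the 8 passed the filter mainly through WT mice, so their number is no evidence of a direction. The median log2 fold change was -0.05 in groups 1 to 3, -0.03 in groups 4 to 8, -0.46 in group 9 and -1.37 in group 10. The mice are those of the preceding comparisons, so these values are not a further set of evidence.

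The pooled values show where along the clusters the genotypes separated. Hoxc10 ran from 44.3 through a median of 54.7 to 75.2 CPM in WT mice and from 2.72 through 19.1 to 39 CPM in G93A mice, without overlap (log2 fold change -1.37 ± 0.39 SE, adjusted p = 0.00632 in edgeR's quasi-likelihood test). Hoxa10 ran from 26.3 to 45.3 and from 1.35 to 25.1 CPM, also without overlap (-1.26 ± 0.40, adjusted p = 0.0124 in edgeR's quasi-likelihood test). Hoxd10 ran from 8.82 to 35.3 and from 0 to 13.9 CPM, with overlap (-1.91 ± 0.57, adjusted p = 0.00831 in edgeR's quasi-likelihood test). Each gene of the lumbar group was thus called lower in the pooled mice, while none of the 3 passed in untreated mice alone. The more anterior Hoxa9, at 79.7 to 95.9 against 29.2 to 78.2 CPM, and Hoxd8, at 71.4 to 88 against 58.1 to 69.3 CPM, did not overlap either (-0.70 ± 0.16 and -0.29 ± 0.06). The lumbar genes also rose and fell together between mice. Since the level of cord sampled is not given, lower expression and a different level of the piece cannot be told apart.

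Higher in G93A mice were Hoxa5 (0.31 ± 0.06), Hoxc8 (0.63 ± 0.15), Hoxc5 (0.72 ± 0.21) and Hoxc6 (0.30 ± 0.10), 3 of them in the anterior part of the Hoxc cluster. Hoxc8 ran from 44.5 through 56.1 to 81.9 CPM in WT mice and from 62.5 through 83.8 to 130 CPM in G93A mice. Hoxc5 ran from 3.37 through 5.13 to 7.15 CPM and from 4.51 through 7.51 to 12.4 CPM. Both overlapped between genotypes. Hoxd9 was lower, from 16.9 through 19.1 to 24.6 CPM in WT mice and from 2.3 through 9.54 to 17.4 CPM in G93A mice, with overlap (-1.10 ± 0.30). The other calls outside groups 10 to 13 were smaller, with log2 fold changes of -0.21 for Hoxb8, -0.14 for Hoxb7, -0.28 for Hoxd4, -0.37 for Hoxd3 and -0.22 for Hoxb9. Of the 23 calls, 22 held whichever mouse was left out, and Hoxb7 did not, its adjusted p reaching 0.0868 in edgeR's quasi-likelihood test. Without the mice of 3 Hoxd10 reads or fewer 21 calls held, Hoxc10 was at -0.93 (adjusted p = 0.000761) and Hoxc6 at 0.17 (adjusted p = 0.16) in the same test.

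Cell type markers moved with genotype beside these genes. At 155 days the summed level of 8 motor neuron markers was 336 to 411 CPM in WT mice and 165 to 237 CPM in G93A mice, that of the astrocyte genes Gfap and Aqp4 was 2292 to 2974 and 10734 to 14379 CPM, and that of the microglial genes Aif1 and Cx3cr1 was 45.1 to 62 and 160 to 317 CPM. None of these ranges overlapped, and their part in the Hox differences was not tested. The levels of 4 oligodendrocyte genes did overlap, at 15670 to 18157 and 15585 to 19276 CPM.

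**Figure D5:**
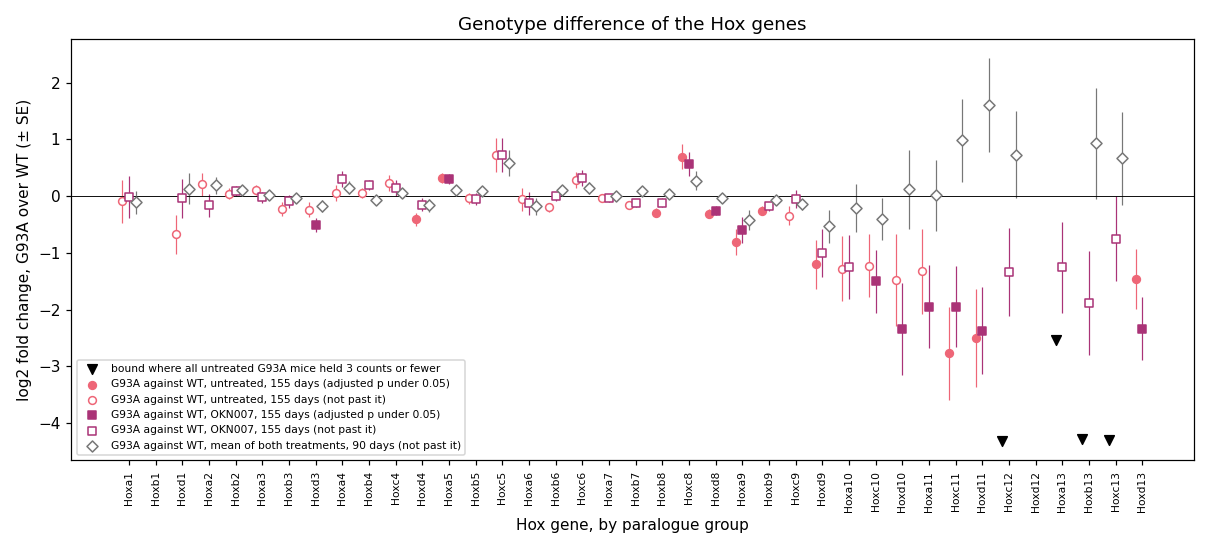
Log2 fold change of G93A over WT mice (vertical axis, bars are SE) for each tested Hox gene (horizontal axis, in order of paralogue group) in untreated mice at 155 days, OKN007 mice at 155 days and both treatments together at 90 days, with filled symbols for an adjusted p under 0.05. Black triangles are bounds for 4 genes with 3 reads or fewer in every untreated G93A mouse. They rest on the WT mean without its spread, and the change in means may lie below them. At 155 days the values up to group 8 lie on both sides of 0, with Hoxc5 and Hoxc8 among the highest, those from Hoxa9 onward lie below 0, and no value at 90 days passed the threshold.

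At 90 days no Hox gene was called between G93A and WT mice. Of 35 tested, 0 passed in untreated mice, 0 in OKN007 mice and 0 in the mean of both treatments by edgeR's quasi-likelihood test, with 2, 1 and 2 genes at an unadjusted p under 0.05 (beside 1126, 747 and 1250 of all 18899 genes). DESeq2 also called 0, and so did edgeR without the mice of 3 Hoxd10 reads or fewer. Few genes of any kind passed at that age (0.00%, 0.00% and 0.0265% of 18899, the last made of 0.0159% higher and 0.0106% lower). Hoxc10 had a log2 fold change of -0.40 in the mean of both treatments and no gene of group 10 passed. The sacral genes varied between mice of every group. Hoxc11 was at 7.19, 2.01, 0.3 and 6.45 CPM in untreated WT mice, 0.271, 0.0754, 1.51 and 0 in OKN007 WT mice, 3.07, 5.74, 4.65 and 1.96 in untreated G93A mice and 0.0388, 0, 5.26 and 2.18 in OKN007 G93A mice. Hoxc13 was at 3.54, 0.446, 0.0376 and 1.8 CPM, 0, 0.0377, 0.503 and 0, 0.894, 2.1, 0.344 and 1.21, and 0, 0.356, 1.43 and 0.034 CPM in the same groups. These groups overlapped widely.

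Whether the G93A difference changed with age was tested directly in untreated mice. Of 37 tested genes 2 passed, Hoxc12 and Hoxc13, both with a larger drop at 155 than at 90 days (5.41%, beside 21.2% of all 19829 genes, 12.9% in the upward and 8.34% in the downward direction). Their adjusted p was 0.00893 and 0.0264 in edgeR's quasi-likelihood test, and the fitted sizes rest on untreated G93A mice at 155 days with 2 reads or fewer and are no measure of the change. At 90 days Hoxc12 was at 1.83, 0.631, 0.188 and 1.06 CPM in untreated WT mice and 0.816, 0.7, 0.344 and 0.93 in untreated G93A mice, against the 155-day values given above. Without the mice of 3 Hoxd10 reads or fewer neither passed (adjusted p = 0.052 and 0.0808 in the same test). Hoxc13 was also lost without untreated G93A replicate 10 at 90 days or replicate 11 at 155 days. For Hoxc10 the change between ages was not past the threshold.

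OKN007 changed no Hox gene past the threshold. Between OKN007 and untreated mice 0 of the tested genes passed in G93A mice and 0 in WT mice at either age, as did 0 for the genotype by treatment interaction, by edgeR's quasi-likelihood test (0.00% of all genes in each comparison), and DESeq2 called 0 Hox genes too. The counts were also 0 without the mice of 3 Hoxd10 reads or fewer. At an unadjusted p under 0.05 there were 4, 1 and 3 of 37 Hox genes at 155 days, beside 755, 549 and 437 of all 18675, and 1, 6 and 1 of 35 at 90 days, beside 1050, 769 and 531 of all 18899. The 4 in G93A mice at 155 days were Hoxc12, Hoxa13, Hoxb13 and Hoxc13, which have 3 reads or fewer in every untreated mouse of that group. Hoxc12 was at 0, 0, 0 and 0.0325 CPM untreated and 0, 2.16, 0.361 and 1.63 CPM with OKN007 (adjusted p = 1 in edgeR's quasi-likelihood test). Of the 6 in WT mice at 90 days 5 were sacral and caudal genes with lower values under OKN007. Hoxd11 was at 3.02, 1.26, 0.113 and 1.92 CPM untreated and 0, 0, 0.252 and 0 CPM with OKN007 (adjusted p = 0.993 in edgeR's quasi-likelihood test). Both pairs of groups overlapped. Hoxc10 in G93A mice at 155 days averaged 20.9 ± 20.8 CPM untreated and 20 ± 9.94 CPM with OKN007 (SD, n = 4), a log2 difference of -0.06 ± 0.56 SE.

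Between 90 and 155 days, over the mean of the 4 groups, 3 of 7 genes of groups 1 to 3 and 8 of 15 of groups 4 to 8 were called lower. Of 37 tested Hox genes 16 passed, 4 higher and 12 lower (43.2%, beside 55.2% of all 19829 genes, 31.8% higher and 23.4% lower). Hoxa7, the most abundant gene of its group, ran from 160 through 174 to 204 CPM in the 16 mice at 90 days and from 124 through 139 to 153 CPM in the 16 at 155 days (log2 fold change -0.33 ± 0.04 SE, adjusted p = 3.97e-09 in edgeR's quasi-likelihood test). Its values did not overlap between ages. Hoxb4, one of the cervical genes, ran from 29 to 49.6 and from 24.2 to 32.4 CPM (-0.36 ± 0.05), Hoxa4 from 6.41 to 11.2 and from 4.46 to 7.57 CPM (-0.51 ± 0.08), and Hoxc9 from 24.1 to 46.8 and from 15.9 to 32.3 CPM (-0.48 ± 0.08). The lower calls also took in Hoxb7, Hoxd4, Hoxd3, Hoxc8, Hoxd1, Hoxb5, Hoxb6 and Hoxa3, with log2 fold changes from -0.71 (Hoxd1) to -0.13 (Hoxa3).

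The 4 genes that were higher at 155 days lie apart in the code. Hoxa6 ran from 1.82 through 2.46 to 3.73 CPM at 90 days and from 2.48 through 4.12 to 5.21 CPM at 155 days (0.68 ± 0.10, adjusted p = 1.97e-06 in edgeR's quasi-likelihood test). Hoxb9 rose by 0.17, Hoxd11 by 1.33 and Hoxa11 by 1.05 on the log2 scale, the last 2 narrowly (adjusted p = 0.041 and 0.0485 in edgeR's quasi-likelihood test) and neither of these 2 by DESeq2 (adjusted p = 0.111 and 0.153). Hoxb9 was lost without untreated G93A replicate 10 at 90 days (adjusted p = 0.0514 in edgeR's quasi-likelihood test), and Hoxd11 and Hoxa11 were each lost when any of many mice was left out. Without the mice of 3 Hoxd10 reads or fewer the count was 17. The ages also differed in their tissue: 4 oligodendrocyte genes summed to 22758 to 43004 CPM at 90 days and 15585 to 19276 CPM at 155 days, without overlap, and their part in these differences was not tested. Age and collection cannot be told apart, since the labels name no batch.

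Genes that work with or upstream of Hox genes are given for the pooled genotype comparison at 155 days, from lists chosen with earlier results known, beside the 54.7% of all genes called. Of 9 Hox cofactors of the Pbx, Meis and Pknox families, which bind DNA beside Hox proteins, 2 were higher, among them Meis3 (0.22), and 3 lower (Meis2 -0.54, Pbx3 -0.46 and Pknox2 -0.24), with a median log2 fold change of -0.02. Of 7 tested genes of retinoic acid, Gdf11 and related signals that set Hox domains in the embryo, 4 were higher: the retinoic acid receptors Rarg (0.63) and Rarb (0.25), the ligand Gdf11 (0.41) and the retinoic acid-degrading enzyme Cyp26b1 (0.36). Of 17 Polycomb and Trithorax genes, which keep Hox genes silent or active, 3 were higher (Rnf2 0.44, Ezh2 0.49 and Eed 0.23) and 7 lower, among them Jarid2 (-0.24), with a median of -0.06.

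Of 12 motor column genes, which act downstream of the Hox code in motor neurons, 8 were lower and 2 higher. Mnx1, a motor neuron identity factor, had a log2 fold change of -1.28 ± 0.12 SE (adjusted p = 3.92e-08 in edgeR's quasi-likelihood test), and the GDNF receptor Ret one of -0.41 and the transcription factor Etv1 one of -0.36. Gfra1, the co-receptor of Ret, was higher by 0.40. The list shares genes with the motor neuron markers given above. Evx1 and Evx2, homeobox genes at the ends of the Hoxa and Hoxd clusters, were lower (-1.32 and -0.95). Of 8 tested noncoding genes inside the clusters 3 were lower: Hotair of the posterior Hoxc cluster (-2.52), Hoxa11os (-1.91) and Hoxb3os (-0.32). The last 2 lie antisense to Hoxa11 and Hoxb3, with which their reads may be shared. No gene of these lists passed the test for a difference with OKN007 at 155 days.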

How the data were processed

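Per the labels, polyadenylated RNA of 32 mouse spinal cords was sequenced. The deposited values are raw counts of reads per gene, made by the authors; the submitters' processing notes name FastQC, STAR, featureCounts and edgeR with builds GRCm39, mm39 and hg38, while the study's methods name HTSeq for counting, GENCODE M10 and build GRCm38. The only coordinates given are therefore those of RefSeq promoters. Symbols and exon lengths came from GENCODE M21 (41218 of 42524 gene IDs, 96.9%). No pair of libraries was identical.

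Counts were tested with edgeR 4.0.16 (R 4.3.3): filterByExpr, TMM factors and quasi-likelihood tests with Benjamini-Hochberg adjustment over all tested genes (threshold 0.05), with the 16 mice of 1 age in a fit and all 32 for contrasts between ages. Alternatives were DESeq2 1.42.0, RLE factors, no filter, 1 fit of all mice, 2 groups only, an adjusted p of 0.1, a replicate block, a pseudocount of 0.1 for log values and leaving out each mouse. Correlations used scipy 1.17.1. The scripts were tested on simulated data. The samples are separate mice; sample numbers recur at both ages but the mice differ.

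All Hox genes were accounted for. Overlap between groups was read for single Hox genes only, and the share of all genes without overlap was not counted. Values per mouse are given for the leading gene by mean CPM of each paralogue group and for genes past the threshold, at most 12 a comparison, in full or as lowest, median and highest. Other lists name genes past the threshold, at most 4 a list. The members and lists were chosen with earlier results of these data known. Leaving out the mice with 3 Hoxd10 counts or fewer, or the 4 lowest in Hoxc10, was added after seeing the data. Intervals and floors of counts cover counting error only.

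Marker lists, as ranges of summed CPM over all mice, were: dorsal root ganglion 2.17 to 7.14, forebrain 2.53 to 7, cerebellum 29.7 to 79.1, skeletal muscle 1.2 to 10.4, cartilage and bone 17.1 to 39, and liver 0.111 to 166, the highest in untreated G93A replicate 12 at 155 days. Motor neuron, glial and Schwann cell lists are given with the results.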

Additional observations from a re-analysis of the deposited data

Results flagged for a closer look

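Among the leading gene of each paralogue group and Hoxd10, 110 gene and group pairs of 4 mice each were examined for a mouse far from the other 3 by Dixon's ratio. This was so in 7 pairs, from 6 mice, where chance gives about 5.5 (1 in 20). In untreated WT mice Hoxb2 was 12.9 CPM in replicate 2 at 90 days, where the next lowest was 16.3, and 18.1 CPM in replicate 2 at 155 days, where the next highest was 14.3. Hoxb6 was 82.9 CPM in OKN007 WT replicate 7 at 155 days, above 74 CPM. In OKN007 WT replicate 7 at 90 days Hoxc12 was 0.252 CPM, with 0 in its 3 group mates, and Hoxc13 was 0.503 CPM, above 0.0377 CPM. Hoxc12 was 0.902 CPM in OKN007 G93A replicate 15 at 90 days, above 0.0681 CPM. Hoxd10 was 34.7 CPM in untreated WT replicate 4 at 155 days, above 13.2 CPM.

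The difference between untreated G93A and WT mice was itself different between 155 and 90 days for 2 genes. The fitted log2 differences were -7.06 for Hoxc12 and -5.50 for Hoxc13. Both rest on untreated G93A mice at 155 days with at most 2 reads, so their size depends on the prior count of edgeR.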

How the results depend on the processing

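The count of called Hox genes at 155 days in untreated mice (15) was 9 with the 2 compared groups alone and 5 without the mice of 3 Hoxd10 reads or fewer, and 10 to 22 when single mice were left out. In OKN007 mice (11) it was 17 with no filter on low counts, 6 with all 32 mice in one fit, 18 at an adjusted p under 0.10, 5 with DESeq2 and 5 to 11 when single mice were left out. With no filter, 2 Hox genes were called for OKN007 in G93A mice at 155 days, 2 for the interaction at 155 days and 2 for OKN007 in WT mice at 90 days, where the filtered count was 0. The difference between ages (2) was 5 at an adjusted p under 0.10, 0 without the low mice and 1 to 3 when single mice were left out. For the mean of both treatments (23) the count was 21 to 24 under every alternative run. The correlation of Hoxc10 with Hoxc5 was -0.31 within 90 days and -0.32 with group means subtracted, neither past the threshold. Of 1542 alternative values for single called genes none changed sign, 1393 kept their side of the threshold and 149 did not. The causes were not tested.

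With the sample number as a replicate block, 3 genes were called for the difference between ages and 15 for 155 against 90 days. The numbers do not mark shared mice: same-numbered mice of the 2 ages had deviations correlated at -0.22 to 0.26 (median -0.07), over 0.1 in 4 of 16 pairs. The genes of groups 11 to 13 had few reads, and 4 mice a group limit what could be detected for them.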

Other observations

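Genes outside the 39 were ranked by how closely they followed Hoxc10 between mice once each group's mean was subtracted, among 15525 genes with a mean above 1 CPM. This ranking was made after the data were seen. After adjustment over all of these genes 25 passed by a permutation test (0.161%), the Hox genes included. The closest outside the Hox genes were 3 noncoding genes, Gm49477 on chromosome 15 (r = 0.84, Spearman's rho = 0.74) and Gm53 and Mir196a-1 on chromosome 11 (r = 0.79 for both, rho = 0.75 for both), the chromosomes of the Hoxc and Hoxb clusters. Next came Nms, which encodes the neuropeptide neuromedin S, with r = 0.73 and rho = 0.72, and Vwf, which encodes von Willebrand factor of blood vessel lining, with r = 0.72 and rho = 0.68 (permutation p = 1e-05, the smallest possible, and adjusted p = 0.0119 for each of the 5). Nms ran from 0.337 through 1.72 to 4.18 CPM over the 32 mice and Vwf from 6.32 through 15 to 24.2 CPM. Without the 2 mice farthest from the median of Hoxc10, r was 0.66 for Nms and 0.80 for Vwf. Among genes that ran opposite, Tmem151a had r = -0.67 (rho = -0.70, permutation p = 2e-05, adjusted p = 0.0194) and Angptl2 r = -0.66 (rho = -0.63, permutation p = 2e-05, adjusted p = 0.0194).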
